A study of Danio rerio with 6 samples.

Results

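Protocadherins are cell-surface proteins of the cadherin superfamily that neurons use to recognise each other and themselves. In zebrafish a large share of them is encoded in clusters, where each gene name stands for its own variable first exon, which carries the extracellular domain and is joined to constant exons shared along an array. The alpha arrays (pcdh1a and pcdh2a) and the gamma arrays (pcdh1g and pcdh2g) come in a first and a second cluster, a pair that arose by duplication. A neuron switches on a small choice of these variable exons, and in mice the gamma genes are known for the survival of retinal neurons and for keeping the branches of one amacrine cell apart. The remaining protocadherins are single genes scattered over the genome, each with its own promoter.

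All rows of the authors' deposited gene table whose symbol begins with pcdh were taken, which gave 39 of 9211 listed genes. Of these, 30 carry a clustered prefix (1 pcdh1a, 11 pcdh1g, 14 pcdh2a and 4 pcdh2g) and 9 are non-clustered. The table compares whole retinas of thrb-/- zebrafish, homozygous for the stl628 allele of the gene for thyroid hormone receptor beta, with those of clutch-matched wild-type fish. All fish were 6 months old and of the AB* background, and each genotype had 3 poly-A-selected RNA-seq samples that pooled 2 retinas of a male with 2 of a female. The labels name no treatment of either genotype. The receptor was changed in every cell and throughout life, so development and adult function cannot be told apart. Transcripts of thrb stood at 413 normalized counts in mutant retinas and at 3301 in wild-type retinas in the authors' deposited table, 8.03-fold lower in the mutant (log2 fold change -3.01, SE 0.13).

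Values below are mean normalized counts of each genotype and log2 fold changes of mutant over wild-type with their standard errors (SE), all as the authors deposited them. The SE of a difference between genes takes their errors as independent, although the genes share libraries. A normalized count is a read count divided by its library's size factor, and it is not corrected for gene length, so levels of different genes are not compared. The table holds no value per sample, and whether single samples of the genotypes overlap cannot be read from it. "Rose" and "fell" mark genes with an adjusted p under 0.05 in a Wald test against no change (fold change over its SE, normal distribution, Benjamini-Hochberg over the 9211 genes). The symbol alone decides which genes belong here, but the family was picked after values of this same comparison had been seen, so the calls and p-values describe the genes and are no independent evidence. The authors' own test asked for a change beyond 2-fold, and none of the 39 genes had a p-value below 1 in it, against 0.391% of all listed genes.

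The tissue was retina by its markers, as all 10 retina markers looked up were listed, with means over both genotypes of at least 3534 normalized counts. They summed to 116% of the wild-type level in the mutant. Most of that sum was rho, which did not pass (713968 in mutant and 592476 in wild-type retinas in the authors' deposited table). The median log2 fold change of the 10 was 0.066, with 6 above 0 and 4 below. No red cone opsin was among the 10, so their sum and median do not cover the red cone opsins. Of the 10, 1 rose, the blue cone opsin opn1sw2 (0.37 on the log2 scale, SE 0.11, adjusted p = 0.035, from the authors' deposited table). The ultraviolet cone opsin opn1sw1 had an estimate of 0.32 with an SE of 0.10 in that table and did not pass (adjusted p = 0.058). All 4 pigment epithelium markers looked up fell, with a summed level of 1535 in mutant and 3191 in wild-type retinas and log2 fold changes between -1.16 and -0.88. Amacrine and horizontal cell markers summed to 46378 in mutant and 46986 in wild-type retinas, where gad1b, an enzyme of GABA synthesis, fell and 5 of 6 did not pass. None of 4 bipolar, 5 Müller glia and 4 other-tissue markers (blood, skin, lens and muscle) passed. Ganglion cell markers summed to 13737 in mutant and 12022 in wild-type retinas, where elavl3 and elavl4, neuronal RNA-binding proteins, rose and 5 of 7 did not pass. The higher sum came from these genes, as the median log2 fold change of the 7 was -0.0051, with 3 above 0 and 4 below. Whether these shifts play a part in the protocadherin values was not tested. In whole retinas, fewer cells of a type and less RNA per cell cannot be told apart.

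Across the family, the second alpha array rose in part and one single gene fell. Of the 30 clustered genes, 4 rose, 26 did not pass and none fell, where 0.879% of all listed genes rose. All 4 that rose belong to the second alpha array: pcdh2ab12, pcdh2ab11, pcdh2ab10 and pcdh2ac. Of the 9 non-clustered genes, pcdh10a fell, none rose and 8 did not pass, where 1.21% of all listed genes fell and 2.08% changed in either direction. The median log2 fold change was 0.24 for the clustered genes, -0.016 for the non-clustered genes and 0.00063 for all listed genes. Among genes averaging 100 and 200 normalized counts or more, the clustered median was 0.18 and 0.12. Median mean counts were 387 in the first cluster and 133 in the second, so these cuts took out mostly genes of the second cluster. All 4 genes that rose stayed in. A mean weighted by 1 over the squared SE was 0.30 for the clustered genes and -0.12 for the non-clustered genes. Point estimates lay above 0 for 27 of 30 clustered genes, for 4 of 9 non-clustered genes and for 50.1% of all listed genes. Without multiple-test adjustment, a p under 0.05 was reached by 7 clustered genes, all of them higher, and by 3 non-clustered genes, all of them lower. Over all listed genes, 3.76% reached it higher and 4.54% lower. The calls rest on the normal distribution as reference, since none of the 5 genes passed against Student's t with 4 degrees of freedom, where the lowest adjusted p among them was 0.75. Against that reference 1 of all listed genes passed, compared with 192 against the normal distribution. Not passing it therefore does not set these 5 genes apart from other genes.

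**Figure D1:**
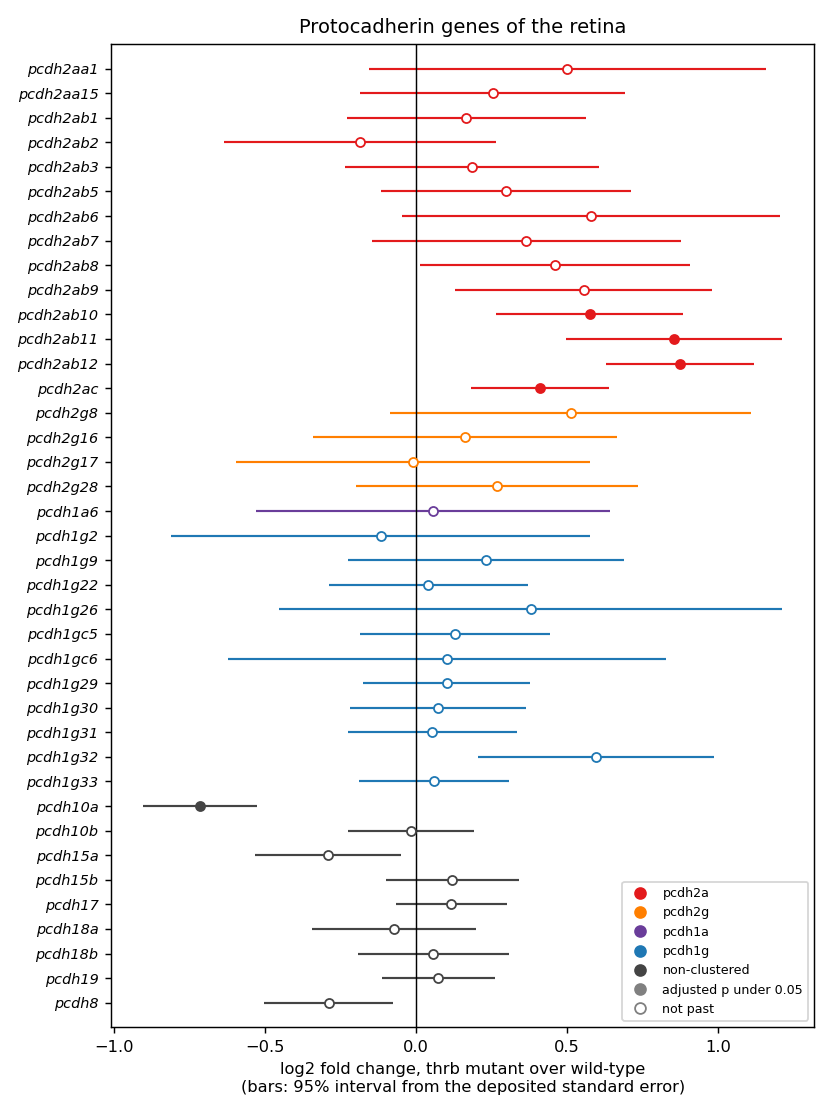
Log2 fold change (x axis, mutant over wild-type) of each of the 39 protocadherin genes (rows), with 95% intervals from the deposited standard errors; filled points have an adjusted p under 0.05. The filled points of the clustered genes are pcdh2ab10, pcdh2ab11, pcdh2ab12 and pcdh2ac, all to the right of 0, and the filled non-clustered point is pcdh10a, at -0.71.

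The largest estimates among the clustered genes were those of 2 alpha genes of the second cluster. With 605 normalized counts in mutant and 329 in wild-type retinas in the authors' deposited table, pcdh2ab12 led them. That is a 1.83-fold higher level (log2 fold change 0.88, SE 0.13, 95% interval 0.63 to 1.12, Wald adjusted p = 1.03e-09). Its neighbour pcdh2ab11 averaged 329 in mutant and 182 in wild-type retinas in the authors' deposited table, 1.81-fold higher (log2 fold change 0.85, SE 0.18, adjusted p = 0.00037). For pcdh2ab10 the authors' deposited table gives 388 in mutant and 260 in wild-type retinas, 1.49-fold higher (log2 fold change 0.58, SE 0.16, adjusted p = 0.017). These 3 names stand for variable exons at the constant-exon end of the numbered pcdh2ab series.

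Closest to the constant exons in gene order lies pcdh2ac, a c-type alpha gene; in mammals the c-type genes are expressed more uniformly among neurons than the other clustered genes. It averaged 1095 in mutant and 823 in wild-type retinas in the authors' deposited table, 1.33-fold higher (log2 fold change 0.41, SE 0.12, adjusted p = 0.025). The log2 fold change of pcdh2ab12 exceeded that of pcdh2ac by 0.46 (SE 0.17, interval 0.13 to 0.80, taking the errors as independent). Among clustered genes pcdh2ac had the highest adjusted p that still passed, and the next one, pcdh1g32, had 0.096.

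The other 10 listed pcdh2a genes did not pass. They include pcdh2ab9, with 233 in mutant and 158 in wild-type retinas in the authors' deposited table (a log2 fold change of 0.56, SE 0.22, adjusted p = 0.25), and pcdh2ab8, with 178 in mutant and 128 in wild-type retinas (0.46, SE 0.23, adjusted p = 0.56). Less precisely measured was pcdh2ab6, at 89.6 in mutant and 59.3 in wild-type retinas in the authors' deposited table (0.58, SE 0.32). The genes pcdh2ab7 (0.37, SE 0.26), pcdh2ab5 (0.30, SE 0.21), pcdh2ab3 (0.19, SE 0.21) and pcdh2ab1 (0.17, SE 0.20) had smaller estimates in the authors' deposited table. The only negative estimate of the array was that of pcdh2ab2, with 118 in mutant and 134 in wild-type retinas in the authors' deposited table (-0.19, interval -0.64 to 0.26). Both listed pcdh2aa genes, from the far part of the array, were above 0 in the authors' deposited table, at 0.50 (SE 0.34) for pcdh2aa1 and 0.25 (SE 0.22) for pcdh2aa15.

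**Figure D2:**
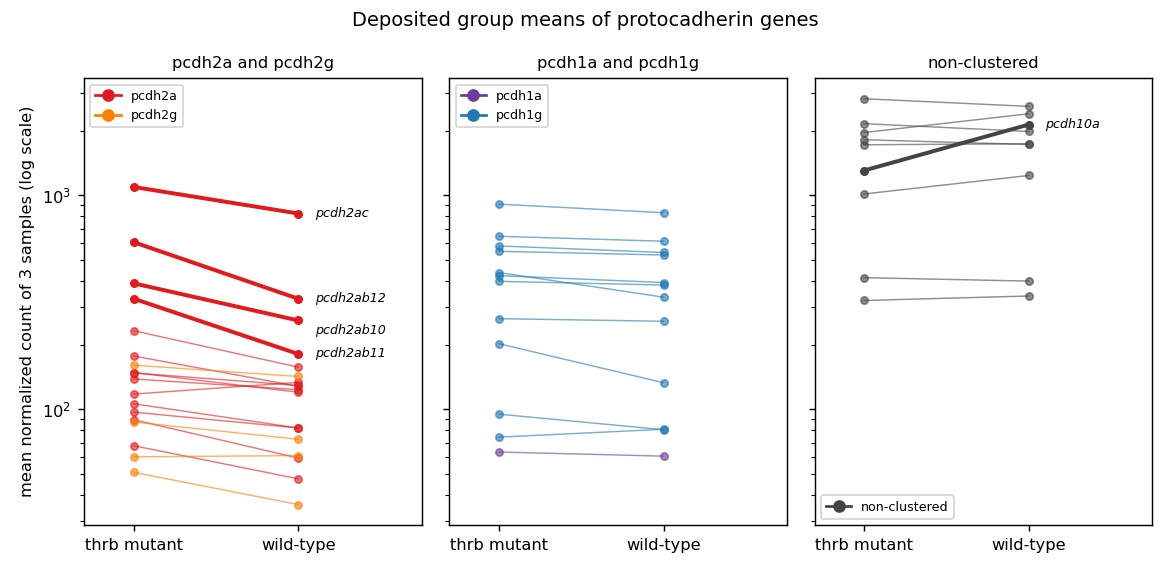
Deposited mean normalized counts (y axis, log scale) of each gene in thrb mutant (left of each panel) and wild-type retinas (right), 3 samples each, without error bars because the table has no values per sample. Thick lines mark genes with an adjusted p under 0.05: pcdh2ac, pcdh2ab12, pcdh2ab10 and pcdh2ab11 are higher in the mutant, and pcdh10a is lower.

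Within the pcdh2ab series the estimates mostly followed the number in the gene name, a pattern described with the values known. The order was not strict, as pcdh2ab6 (0.58, SE 0.32) lay above pcdh2ab7 (0.37, SE 0.26). It did not extend to pcdh2ac (0.41), closest to the constant exons. The pcdh1g and pcdh2g genes did not show it either (Spearman 0.14 and -0.40). The 7 genes numbered 1 to 8 had a median log2 fold change of 0.30, between -0.19 and 0.58, and none of them passed the Wald test. The 4 genes numbered 9 to 12 had a median of 0.71, between 0.56 and 0.88, and 3 of them rose. The cut after number 8 was made with the values known and puts every pcdh2ab gene that rose on one side. It is therefore no support for the order. Across the 11 genes the rank correlation of number and log2 fold change was 0.90 (Spearman; Pearson's r 0.90). These are descriptions over genes that share libraries, constant exons and similar sequence. The mean normalized count also went with the number (Spearman 0.75) and less with the log2 fold change (0.55). In the RefSeq annotation of assembly GRCz12tu, which places 7 of the 11 by name, their order follows the numbers exactly, from the far end of the array towards pcdh2ac. The log2 fold change of pcdh2ab12 exceeded that of pcdh2ab1 by 0.71 (SE 0.24, interval 0.24 to 1.17). Because pcdh2ab12 has the largest estimate of the family, its differences from pcdh2ab1, pcdh2ac and pcdh1g33 lean upward.

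Summed over the 11 pcdh2ab genes, the deposited means came to 2483 normalized counts in mutant and 1705 in wild-type retinas, so the mutant sum was 146% of the wild-type sum. The part of the sum taken by pcdh2ab12 was 24.4% in mutant and 19.3% in wild-type retinas. Together pcdh2ab10, pcdh2ab11 and pcdh2ab12 made up 53.3% of the sum in mutant and 45.2% in wild-type retinas. At the other end of the series, pcdh2ab2 took 4.75% in mutant and 7.85% in wild-type retinas. These sums and shares have no error, since no values per sample are listed. How reads common to several of these gene models were counted is not given, so the sums and shares are uncertain. They are not corrected for gene length and restate the group means, so a share is compared between genotypes and not between genes.

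**Figure D3:**
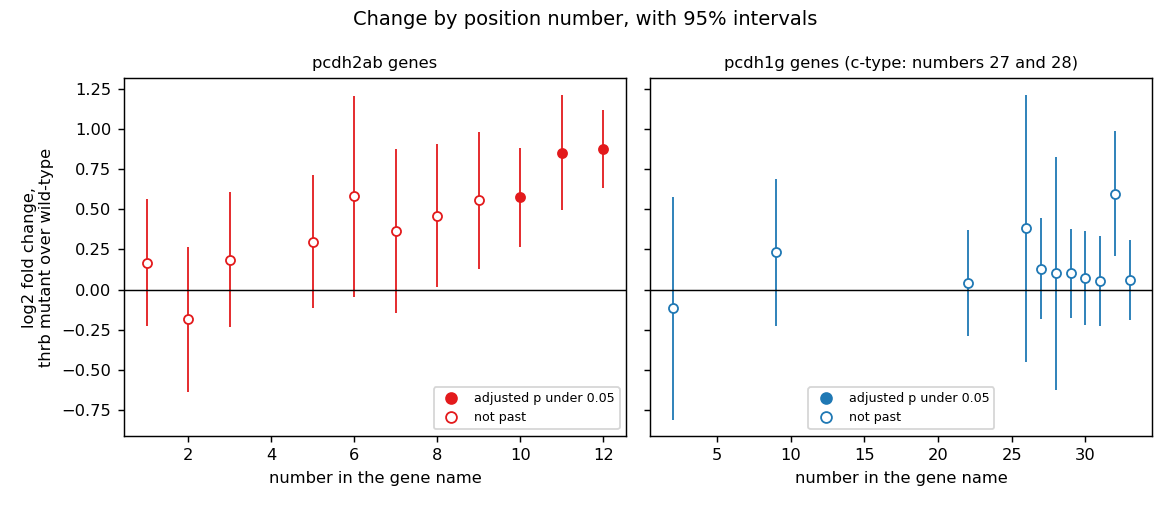
Log2 fold change of mutant over wild-type (y axis, with 95% intervals) against the number in the gene name (x axis) for the 11 pcdh2ab genes (left) and the 11 pcdh1g genes (right; pcdh1gc5 and pcdh1gc6 at the numbers of their RefSeq synonyms, 27 and 28). The pcdh2ab estimates run from 0.17 and -0.19 at numbers 1 and 2 to 0.85 and 0.88 at numbers 11 and 12, whereas the pcdh1g estimates lie between -0.12 and 0.23 apart from pcdh1g32 and pcdh1g26.

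The gamma genes of the second cluster were measured at low counts, and none of the 4 passed (none at an unadjusted p under 0.05 either). Their median log2 fold change was 0.22. The estimates in the authors' deposited table were 0.51 (SE 0.30) for pcdh2g8, 0.27 (SE 0.24) for pcdh2g28, 0.16 (SE 0.26) for pcdh2g16 and -0.0082 (SE 0.30) for pcdh2g17. In every listed gene the higher of the 2 group means is at least 50.04, and 2 clustered genes reach that level through the mutant mean alone. They are pcdh2g8, with 50.9 in mutant and 35.9 in wild-type retinas in the authors' deposited table, and pcdh2aa1, with 67.7 in mutant and 47.4 in wild-type retinas. Genes of this kind were bound to have a higher mutant mean, so the counts and medians of the clustered genes lean upward through them. Without both, the clustered median was 0.21.

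In the first cluster none of the 12 genes passed. The 11 pcdh1g genes had a median log2 fold change of 0.10. Of all 9211 listed genes, 764 reached an unadjusted p under 0.05 in the Wald test, and of these 11 a single one did, which is near that share. That gene was pcdh1g32, with 203 in mutant and 133 in wild-type retinas in the authors' deposited table (a log2 fold change of 0.60, SE 0.20, interval 0.21 to 0.99, adjusted p = 0.096). Beside it in the array, pcdh1g31 stood at 397 in mutant and 381 in wild-type retinas in the authors' deposited table (0.054, SE 0.14). The last numbered gene, pcdh1g33, stood at 548 in mutant and 526 in wild-type retinas (0.060, SE 0.13, interval -0.19 to 0.31, in the authors' deposited table). It lies 0.82 below pcdh2ab12 on the log2 scale (SE 0.18, interval 0.47 to 1.17). The number in the name went little with the log2 fold change here (Spearman 0.14 over 11 genes). For the 4 pcdh2g genes the rank correlation was -0.40, and of the pcdh2aa genes the lower number, pcdh2aa1, had the higher estimate.

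The c-type gamma gene pcdh1gc5 had 910 normalized counts in mutant and 830 in wild-type retinas in the authors' deposited table (0.13, SE 0.16). For pcdh1gc6, the other c-type gamma gene, the authors' deposited table gives 580 in mutant and 541 in wild-type retinas (0.10, SE 0.37). Both intervals include 0. The remaining pcdh1g estimates in the authors' deposited table were 0.38 (SE 0.43) for pcdh1g26, 0.23 (SE 0.23) for pcdh1g9, 0.10 (SE 0.14) for pcdh1g29, 0.074 (SE 0.15) for pcdh1g30, 0.041 (SE 0.17) for pcdh1g22 and -0.12 (SE 0.35) for pcdh1g2. The single alpha gene of the first cluster, pcdh1a6, had 63.3 in mutant and 60.5 in wild-type retinas in the authors' deposited table (0.056, SE 0.30). RefSeq gives pcdh1g26 as a synonym of pcdh1g9 too, so these names may not mean the same exon in every annotation. Added up from the deposited means, the first cluster stood at 110% of its wild-type sum in the mutant and the second cluster at 138%. These sums have no error, and how reads common to several gene models were counted is not given.

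The precision of the clustered genes was mostly lower than that of genes with a like mean count. Each gene was set beside the listed genes whose mean count lay within a factor of 1.2 of its own, between 141 and 1036 genes. The SE exceeded the median SE of those genes for 27 of 30 clustered genes and for 4 of 9 non-clustered genes. For pcdh1g26 the SE was 3.17 times that median, and 0.516% of like genes had one as large. For pcdh1gc6 it was 3.07 times the median, and 1.06% of like genes had one as large. For pcdh2ab12 it was 0.987 times the median. The other genes that rose lay above it, at 1.19 times for pcdh2ab11, 1.12 times for pcdh2ab10 and 1.09 times for pcdh2ac. The variable exons resemble each other and share constant exons, and how reads common to several gene models were counted is not given in the sources used here, so the separate counts of clustered genes are uncertain. Whether this plays a part in the larger errors was not tested.

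**Figure D4:**
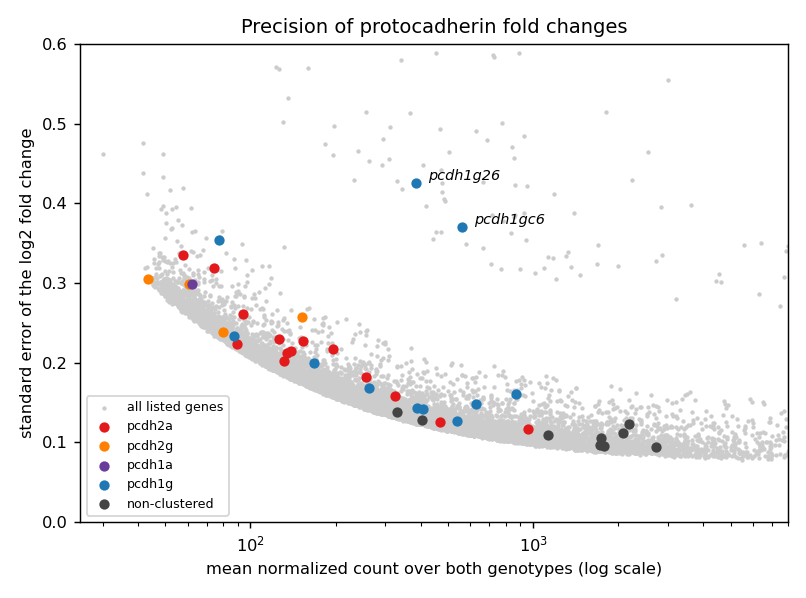
Standard error of the log2 fold change (y axis) against the mean normalized count over both genotypes (x axis, log scale) for all listed genes (grey) and the protocadherin genes (coloured); 33 grey genes above 0.6 are not drawn. The genes pcdh1g26 (0.43) and pcdh1gc6 (0.37) lie far above most genes of like mean count. Few like genes had an SE as large as pcdh1g2 (1.60%) or pcdh2g16 (1.23%) either. Most of the other protocadherin genes lie within or just above the bulk of the grey points.

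Among the single genes, pcdh10a stood apart. It is a delta-2 protocadherin, and its cytoplasmic tail binds the WAVE complex that drives actin branching. In the authors' deposited table pcdh10a averaged 1306 normalized counts in mutant and 2142 in wild-type retinas. It was 1.64-fold lower in the mutant (log2 fold change -0.71, SE 0.096, interval -0.90 to -0.53, Wald adjusted p = 5.90e-11). Its duplicate pcdh10b stood at 1723 in mutant and 1743 in wild-type retinas in the authors' deposited table (-0.016, SE 0.11, interval -0.22 to 0.19). The log2 fold change of pcdh10a was thus 0.70 lower than that of pcdh10b (difference -0.70, SE 0.14, interval -0.98 to -0.42). Because pcdh10a has the lowest estimate of the family, this difference leans away from 0.

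The next lowest estimates belonged to pcdh15a and pcdh8, and neither passed. The protein of pcdh15 forms the tip links of hair cells and is also found in photoreceptors, and its human gene is mutated in Usher syndrome. In the authors' deposited table pcdh15a had 1965 in mutant and 2406 in wild-type retinas (log2 fold change -0.29, SE 0.12, adjusted p = 0.34). Its duplicate pcdh15b had 2162 in mutant and 1988 in wild-type retinas in the authors' deposited table (0.12, SE 0.11) and did not pass. The pair differed by -0.41 (SE 0.17, interval -0.74 to -0.085). Of the non-clustered estimates pcdh15b has the highest and pcdh15a the lowest after pcdh10a, so this difference leans away from 0. For pcdh8, also known as paraxial protocadherin for its part in cell movements of the embryo, the authors' deposited table gives 1015 in mutant and 1239 in wild-type retinas (-0.29, SE 0.11, adjusted p = 0.21).

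The remaining delta-2 genes lay close to 0. In the authors' deposited table pcdh17 had 2828 in mutant and 2604 in wild-type retinas (0.12, SE 0.094). For pcdh19, which in zebrafish takes part in building columns of the optic tectum, it gives 1819 in mutant and 1728 in wild-type retinas (0.075, SE 0.095, in the authors' deposited table). Counts of pcdh18a in the authors' deposited table averaged 323 in mutant and 339 in wild-type retinas (-0.072, SE 0.14). The duplicate pcdh18b had 413 in mutant and 398 in wild-type retinas in the authors' deposited table (0.057, SE 0.13). Their log2 fold changes differed by -0.13 (SE 0.19, interval -0.50 to 0.24). Intervals of pcdh10b, pcdh15b, pcdh17, pcdh18a, pcdh18b and pcdh19 all include 0, and their outermost bounds are -0.34 and 0.34.

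Genes that work with protocadherins were counted in the same way, against the 2.08% of all listed genes that changed in either direction. In mice, the choice of a clustered promoter depends on the DNA-binding protein CTCF, on cohesin, which holds loops of chromatin, and on DNA methylation. Of 22 such genes, 14 were listed and none passed (none at an unadjusted p under 0.05), with a median log2 fold change of 0.026. The members with the highest mean counts, not corrected for length, were nipblb, a cohesin loader (0.075, SE 0.088), and ctcf itself (-0.12, SE 0.088), as the authors' deposited table has them. Of 21 genes for the WAVE complex and the kinases met by protocadherin tails, 16 were listed, 1 fell and none rose, with a median of -0.0087. The gene that fell was ret, a receptor kinase for glial-cell-derived growth factors that forms complexes with clustered protocadherins in mouse neurons. It stood at 801 in mutant and 1427 in wild-type retinas in the authors' deposited table (-0.84, SE 0.15, adjusted p = 2.19e-06).

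Among 46 other cadherin and catenin genes, 19 were listed, 1 rose and none fell, with a median of 0.015. The gene that rose was cdh12a, a type II cadherin, with 466 in mutant and 317 in wild-type retinas in the authors' deposited table (0.55, SE 0.14, adjusted p = 0.0069). The photoreceptor cadherin gene cdhr1a, which serves outer segment discs, had an estimate of -0.095 with an SE of 0.088 in the authors' deposited table. Of 16 Usher genes whose proteins work with that of pcdh15, 8 were listed and none passed, with a median of 0.049. The highest mean count among them was that of espn, with 2584 in mutant and 3035 in wild-type retinas in the authors' deposited table (-0.23, SE 0.12). Over all listed genes, 764 of 9211 reached an unadjusted p under 0.05 in the Wald test, and so did 2 of the 8. These were cdh23, the partner of pcdh15 in the tip link (174 in mutant and 115 in wild-type retinas, 0.59, SE 0.18, adjusted p = 0.051), and myo7aa, a motor of the same complex (1650 in mutant and 2125 in wild-type retinas, -0.36, SE 0.11, adjusted p = 0.051), in the authors' deposited table.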

How the data were processed

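Poly-A-selected RNA of 3 thrb mutant and 3 wild-type retina samples was sequenced. Per the submitters' processing notes, the tools were DESeq2 1.18.1 in R 3.4.3, HTSeq 0.9.1, STAR 2.7.2b and cutadapt 1.9.1, with the build danRer10; their settings, roles, annotation and any filter on low values are not given there. Per the file headers and values, the authors deposited, for each gene, normalized count means (a signal), a log2 fold change of mutant over wild-type, its SE, a score (the test statistic), a p-value and an adjusted p-value. Taken from the group means, the log2 ratio lies within 0.030 of it in every row. Because the deposited p-value tests for a change beyond 2-fold, the Wald test described with the results was computed instead, with numpy 2.4.6, scipy 1.17.1 and pandas 2.3.3, and checked on simulated data. Read depth per library is unknown; precision was taken from the SE. Which clutch each sample came from is not given in the labels. The p-values rest on the deposited SE for these pooled samples and do not measure the spread between single fish or clutches.

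The family, gene lists and tests were chosen with earlier results of these data known. Every pcdh gene may be named, those past the test and the highest and lowest of each class with full values. Of each list up to 4 genes past the test are named, or the 2 of highest mean count where none passed. Outside that rule, cdhr1a and cdh23 were added after their values were seen. List members absent under their symbol were looked up through RefSeq synonyms (GRCz12tu). RefSeq matched 33 of the 39 genes by symbol.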

Additional observations from a re-analysis of the deposited data

How the results depend on the processing

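With Student's t (4 degrees of freedom) in place of the normal distribution, 0 clustered and 0 non-clustered protocadherin genes passed, and 1 of all listed genes. At an unadjusted p under 0.05 in that test, it reached 5 of 30 clustered genes and 1 of 9 non-clustered genes. Of all 9211 listed genes it reached 310. By the authors' deposited adjusted p, for a change beyond 2-fold, 7 of all listed genes and 0 clustered and 0 non-clustered ones passed. The main counts were 4 clustered, 1 non-clustered and 192 of all listed genes. They were 4, 1 and 166 with the adjustment taken over 13700 genes. That total was inferred from the deposited p-values and adjusted p-values of 2 genes, and only listed genes were ranked. The counts were 4, 1 and 194 among genes averaging 100 counts or more, and 4, 1 and 195 among those averaging 200 or more. Centred on the median of all genes, they were 4, 1 and 195. The clustered median ran from 0.12 (genes averaging 200 or more) to 0.24, and the non-clustered median stayed at -0.016; means weighted by precision were 0.30 and -0.12. Leaving out a replicate was not run and no count model was fitted, because only group means are listed. No paired analysis was possible because the table's columns carry no replicate numbers. No row is named pcdh1a alone, so that alternative gave no value.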
